A study of Mus musculus with 15 samples.

Results

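The subject is a set of 37 interferon-stimulated genes in mouse ear tissue. The set was given as gene symbols, and each symbol was matched exactly to the 21110 genes of the FPKM tables (fragments scaled to transcript length and to the mapped reads of the library). All 37 were found. They comprise 3 transcription factors, 4 RNA sensors, 5 genes of the OAS family, 3 of the IFIT family, 3 of the ISG15 system, 11 other effectors, 5 interferon-inducible GTPases and 3 antigen-processing genes.

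RNA-Seq had been performed on 15 ear samples from C57BL/6 mice, taken here as 1 mouse each. They fall into 4 groups, which are wild type (WT) at 2 weeks after birth (n = 4), Socs3 cKO at 2 weeks (n = 4), WT at 10 weeks (n = 3) and Socs3 cKO at 10 weeks (n = 4). Socs3 cKO stands for a keratin 5-specific conditional knockout of Socs3, which the paper describes as a deletion in keratinocytes. Cells of the ear other than keratinocytes are taken to keep the gene. The labels give keratinocytes as the source and the ear as the tissue, and markers of fibroblasts, endothelial cells, macrophages and skeletal muscle were detected in each group beside those of keratinocytes. In such a mixture, fewer cells of a type and less RNA per cell cannot be told apart.

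As a check of the labels, the level of the targeted gene was looked at first. Socs3 had an FPKM of 9.71, 10.2, 10.3 and 10.3 in WT mice at 2 weeks and of 1.25, 9.32, 12.6 and 3.51 in the mice labelled Socs3 cKO. At 10 weeks it had an FPKM of 2.76, 4.81 and 2.02 in WT and of 36.5, 29.8, 47.7 and 32.4 in the mice labelled Socs3 cKO. The 2-week groups overlapped, and at 10 weeks the gene was higher in each of the 4 mice labelled Socs3 cKO than in each WT mouse (log2 fold change 3.54, SE 0.29, adjusted p = 7.2e-05). A higher level is unlike a plain loss of the gene, but the ear also holds cells outside the targeted ones. Which cells gave these reads, and whether the FPKM values include sequence outside the deleted part, was not tested. The label could thus not be checked from this gene. The groups are therefore called labelled Socs3 cKO throughout, and each direction given below is between groups as labelled.

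The libraries held about 11500000 to 16500000 reads, as judged from the FPKM worth of 1 read. Genes at 0 numbered 1414 to 3176 in the WT libraries at 10 weeks and 4044 to 4423 in the other 12 libraries. The sample titles carry codes that lie in a separate range for each group, and the labels do not say what the codes stand for. Differences of genotype and age therefore cannot be told apart from other differences between the sets of libraries. This holds above all for values near 0 in WT at 10 weeks, where fewer genes were at 0. At 2 weeks, replicate 1 of the mice labelled Socs3 cKO had the lowest value of its group for 7311 of 13524 genes tested, and at 10 weeks replicate 4 of that label for 5714 of 13105. The counts of calls at 2 weeks are given with and without the former, and leaving out the latter left the number of up-regulated interferon-stimulated genes at 10 weeks at 2.

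Interferons are secreted proteins that cells release when they sense viral nucleic acid or tissue damage. Type I and type III interferons act through the kinases JAK1 and TYK2 on a complex that includes STAT2 and IRF9 and binds the interferon-stimulated response element (ISRE) of target genes. The response to interferon-gamma runs through another element, the gamma-activated site (GAS). SOCS3 is known for restraining STAT3 downstream of receptors of the IL-6 family, and SOCS1 for restraining the interferon response.

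The promoters of the genes on which the results turn are shown first. RefSeq promoters on GRCm38.p6, covering 250 bases before each annotated start and reaching 300 bases in all, were at hand for 28 of the 37 genes. The ISRE letters, which are GAAA followed by any 2 bases and GAAA again, searched on both strands, were present in 14 of these 28 (50%) and in 3.99% of all 27025 genes with a promoter. No promoter was at hand for Dhx58, Oas2, Usp18, Mx1, Mx2, Rtp4, Parp9, Parp14 and Iigp1. The GAS letters TTCNNNGAA, which read alike on both strands, were present in 8 of the 28 (28.6%) and in 9.55% of all genes. Some promoters, such as that of Oas1a, hold both. The 4 ISRE-bearing stretches are from genes with different roles, and the stretches of Irf1 and Socs3 are shown because both genes had large differences at 10 weeks. Gbp2, with ISRE letters, was likewise above WT in all 4 mice labelled Socs3 cKO. Capitals mark the matched letters, and each stretch lies upstream of the start and is written 5′ to 3′ on the strand of the gene.
Isg15, chr4:156200855-156200916, minus strand, 3 overlapping matches: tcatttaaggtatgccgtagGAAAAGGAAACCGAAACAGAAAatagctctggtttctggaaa
Ifit1, chr19:34640765-34640833, plus strand, 2 matches: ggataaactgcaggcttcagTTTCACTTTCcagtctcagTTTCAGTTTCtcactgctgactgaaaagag
Oas1a, chr5:120907526-120907565, minus strand, 2 overlapping matches: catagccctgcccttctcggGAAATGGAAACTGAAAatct
Gbp2, chr3:142620584-142620633, plus strand, 1 match: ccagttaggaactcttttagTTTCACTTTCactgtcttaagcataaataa
Irf1, chr11:53769904-53769952, plus strand, 1 GAS match: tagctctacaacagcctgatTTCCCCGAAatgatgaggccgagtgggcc
Socs3, chr11:117969492-117969540, minus strand, 1 GAS match: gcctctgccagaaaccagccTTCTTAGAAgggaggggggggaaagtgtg

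In these windows Isg15, Ifit1 and Gbp2 showed ISRE letters and no GAS letters, and Irf1 and Socs3 showed GAS letters and no ISRE letters. A match describes the letters and does not show binding.

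At 10 weeks 1 of the 4 mice labelled Socs3 cKO, replicate 3, had the highest level of its group for each of the 37 interferon-stimulated genes. The other 3 mice were all above WT for 10 of the 37 genes, and none of the 3 was above WT for 14. Among genes tested without replicate 3, they were all above WT for 9 of 27 of the set and for 32.8% of all genes, a similar share. Isg15, which encodes a ubiquitin-like protein attached to other proteins after interferon, had an FPKM of 3.63, 6.03 and 4.28 in WT. It had an FPKM of 4.72, 3.95, 51.2 and 6.22 in replicates 1 to 4 of the mice labelled Socs3 cKO. Replicate 3 was 8.22-fold above the next mouse of its group, while the other 3 mice overlapped the WT range.

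For the comparison with all genes, the filter on low values was applied without replicate 3, so that no gene entered through that mouse. It left 12922 genes, 27 of the set among them. Replicate 3 was the highest of its group for all 27, against 25.2% of all genes. It exceeded each of the 14 other mice of the study for 26 of the 27, against 7.3% of all genes, and for 36 of the whole set of 37. The exception was Ifit2, for which 1 mouse labelled Socs3 cKO at 2 weeks had 8.22 FPKM against 8.07 in replicate 3. The ratio of replicate 3 to the next mouse of its group ranged from 1.10 for Psmb8 to 14.4 for Ifi44, with a median of 2.32. It was above 2 for 22 of the 37 genes. By Dixon's criterion for a value apart from the others of its group, replicate 3 stood apart at the top for 9 of the 27 genes, against 0.874% of all genes.

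**Figure D1:**
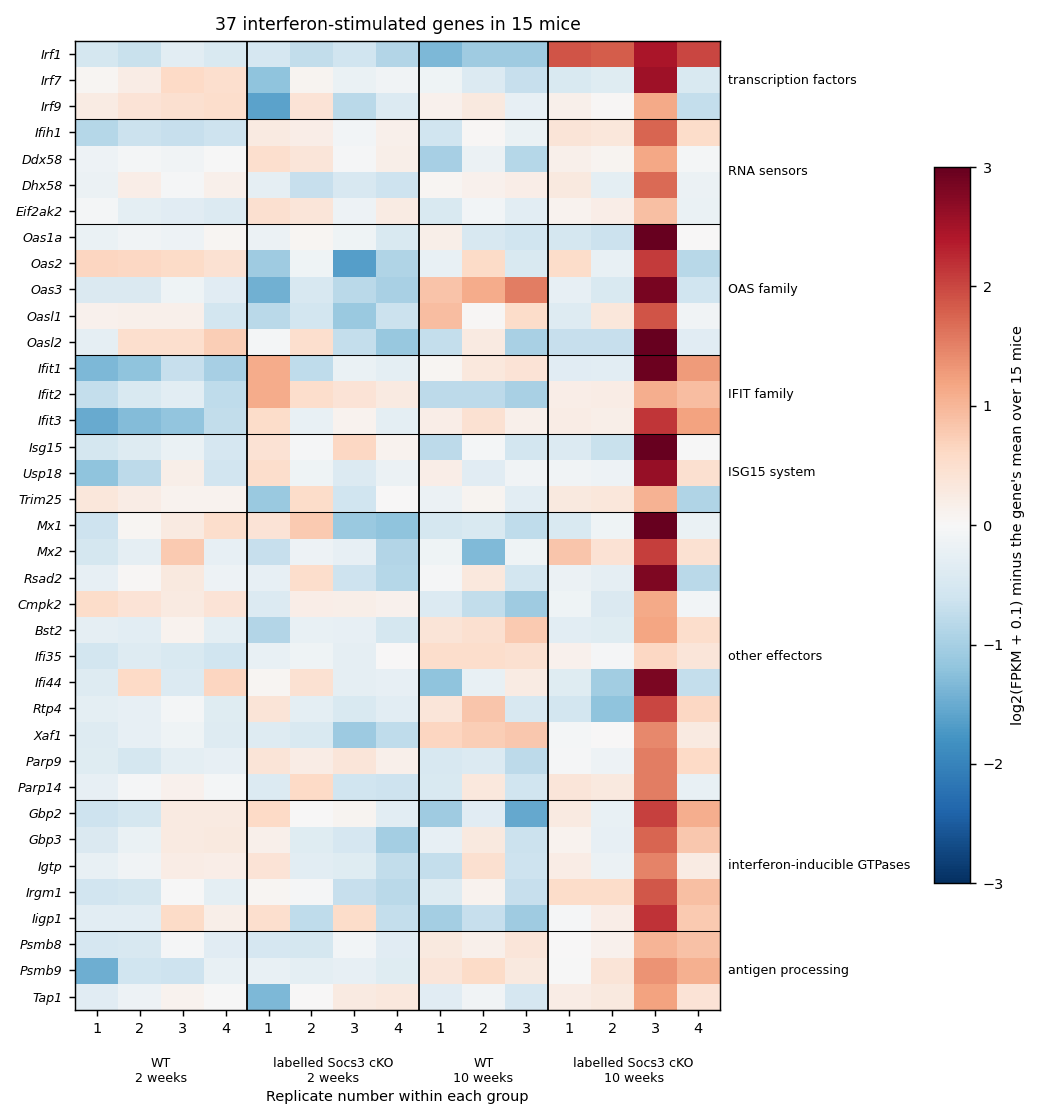
Heat map of the 37 genes (rows, grouped by role) in 15 mice (columns, replicate number within each group). Colour gives log2(FPKM + 0.1) minus the mean of the gene over the 15 mice, with differences beyond 3 drawn at the end of the scale. The column of replicate 3 among the 10-week mice labelled Socs3 cKO is the darkest red for nearly every gene, whereas Irf1 in the top row is red in all 4 mice of that group.

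A threshold applied to all genes puts this in proportion. Replicate 3 was more than 2-fold above the next mouse of its group for 84 of the 12922 genes (0.65%). These 84 included 12 of the 27 interferon-stimulated genes, which is 44.4% of the 27 and 14.3% of the 84. In the opposite direction, replicate 3 was more than 2-fold below the lowest of the other 3 mice for 64 genes (0.495%).

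The groups were then compared gene by gene. Of the 37 genes, 31 reached 1 FPKM in 3 or more of the mice compared and were tested. Mx1, Mx2, Oasl1, Oasl2, Rsad2 and Ifi44 were not, and Oas1a, Oas2, Oas3 and Cmpk2 passed only through replicate 3. A DEG (differentially expressed gene) is defined here by an adjusted p below 0.01 and at least a 2-fold difference. By limma, 2 of the 31 genes tested were up-regulated DEGs, Irf1 and Ifit2, against 12.5% of all genes tested. None was a down-regulated DEG, against 2.43%. At an adjusted p below 0.05 none was lower either, against 8.96%, and 0 of the 31 had lower values without overlap of the groups, against 11.1%. The median log2 fold change of the 31 genes was 0.73, beside 0.31 over all genes. Median-of-ratios scaling moved these medians to 0.48 and 0.06, and quantile normalization to 0.33 and -0.02.

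With replicate 3 left out, 27 of the 37 genes were tested and their median was 0.27, beside 0.29 over all genes. Irf1 was then the 1 up-regulated DEG, against 7.72% of all genes, and 0 were down-regulated DEGs, against 1.72%. At an adjusted p below 0.05, 6 were higher, against 21.4%, and 0 were lower, against 5.78%. The groups then did not overlap for 9 of the 27 with higher values, against 32.8%, and for 2 with lower values, against 12.2%. The log2 fold change of Isg15 moved from 0.94 (SE 0.75) to 0.10 (SE 0.28), that of Irf7 from 0.72 (SE 0.66) to -0.02 (SE 0.26) and that of Ifit1 from 0.64 (SE 0.69) to -0.04 (SE 0.44). None of these passed the test with or without the mouse.

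**Figure D2:**
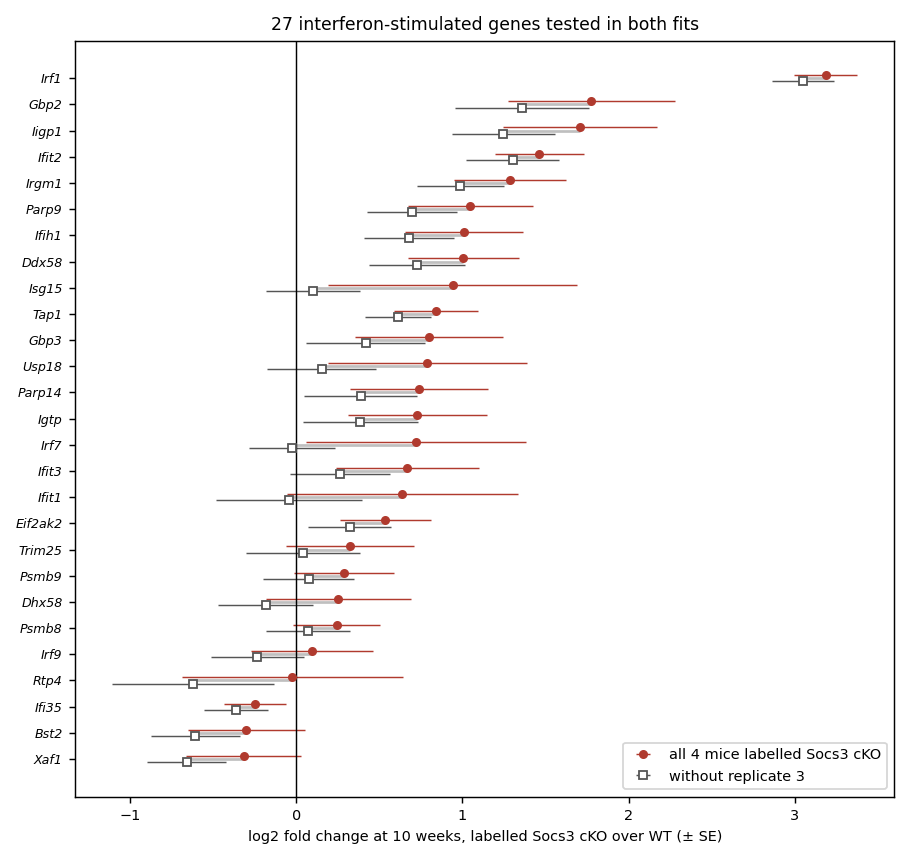
Log2 fold change at 10 weeks, labelled Socs3 cKO over WT, for the 27 genes tested in both fits, with all 4 mice (filled circles) and without replicate 3 (open squares). Bars are SE. Irf1 stays above 3 in both fits, while Isg15, Irf7, Ifit1 and Usp18 move to between -0.04 and 0.15 without replicate 3.

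Among the transcription factors, Irf1 was set apart from the rest of the list. IRF1 is an activator known to respond to interferons and to several other cytokines. Irf1 had an FPKM of 6.88, 8.39 and 8.39 in WT at 10 weeks and of 65.3, 61.9, 95.6 and 70.2 in the mice labelled Socs3 cKO. All 4 mice lay far above the WT range, and replicate 3 was only 1.36-fold above the next. The difference was 9.09-fold (log2 fold change 3.18, SE 0.19, adjusted p = 1.22e-05) and 8.28-fold without replicate 3 (log2 fold change 3.05, adjusted p = 1.88e-05).

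Irf7, the factor that amplifies type I interferon production, followed the other pattern. It had an FPKM of 3.58, 2.96 and 2.42 in WT and of 2.83, 3.02, 23.6 and 2.84 in the mice labelled Socs3 cKO. Irf9, a DNA-binding partner of STAT2, had an FPKM of 11.1, 12.2 and 8.42 in WT and of 11.2, 10.3, 22.2 and 6.09 in the mice labelled Socs3 cKO. For both, 3 of the 4 mice lay within or below the WT range, and neither passed the test (adjusted p = 0.406 and 0.852).

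Stat2, the partner of IRF9, had an FPKM of 3.63, 6.55 and 3.31 in WT and of 5.34, 5.47, 11.1 and 2.67 in the mice labelled Socs3 cKO, and the groups overlapped (adjusted p = 0.555).

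The OAS family encodes enzymes that detect double-stranded RNA and activate RNase L, and related proteins. Oas1a had an FPKM of 1.26, 0.756 and 0.693 in WT and of 0.733, 0.663, 10.4 and 1.10 in the mice labelled Socs3 cKO. Oasl2 had an FPKM of 0.745, 1.59 and 0.607 in WT and of 0.765, 0.762, 11.9 and 0.998 in the mice labelled Socs3 cKO. For both, replicate 3 alone was above the WT range, and replicate 2 was just below it for Oas1a. Oas3 was 3.80 FPKM in replicate 3 and between 0.255 and 0.354 in the other 3 mice, all 3 of which were below the lowest WT value of 0.869. In replicate 3, Oas2 was 3.09-fold and Oasl1 3.31-fold above the next mouse of the group. Reads of near-identical family members may be split between them, and Oas1g, a close copy of Oas1a, was 5.92 FPKM in replicate 3 and between 0.344 and 0.661 in the other 3 mice. At the depth of these libraries the Oasl1 value of 1.45 FPKM in replicate 3 stands for about 55 reads, and the values in the other 3 mice for about 8 to 19.

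The IFIT proteins bind viral RNA and block its translation. Ifit1 had an FPKM of 1.59, 1.92 and 2.07 in WT and of 1.2, 1.22, 12.4 and 3.88 in the mice labelled Socs3 cKO, so that replicates 1 and 2 were below WT and replicates 3 and 4 above it. Ifit3 had an FPKM of 5.83, 6.92 and 5.63 in WT and of 5.92, 5.73, 22.8 and 11.7 in the mice labelled Socs3 cKO, with the same pair of mice above the WT range. Ifit2 differed from its neighbours on chromosome 19. It had an FPKM of 2.11, 2.12 and 1.85 in WT and of 4.31, 4.40, 8.07 and 7.12 in the mice labelled Socs3 cKO, and all 4 were above WT. Its difference was 2.76-fold (log2 fold change 1.46, SE 0.27, adjusted p = 0.00356). It fell just short of a DEG without replicate 3 (log2 fold change 1.3, adjusted p = 0.0103), and quantile normalization, which also lowered the median of all genes, gave 1.04 (adjusted p = 0.0197).

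In the ISG15 system, Usp18, the protease that removes ISG15 and dampens the type I receptor, was 8.28 FPKM in replicate 3 and between 1.14 and 1.81 in the other 3 mice, beside 0.994 to 1.47 in WT. Trim25, a ubiquitin ligase acting with the sensor RIG-I, was 15 FPKM in replicate 3 and between 3.79 and 9.16 in the other 3, beside 5.75 to 7.68 in WT. Neither passed the test (adjusted p = 0.315 and 0.519).

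Among the 11 other effectors, replicate 3 was between 1.2-fold (Ifi35) and 14.4-fold (Ifi44) above the next mouse. Mx1, a GTPase that traps viral ribonucleoproteins, was 8.86 FPKM in replicate 3, 13.2-fold above the next mouse, with WT between 0.394 and 0.511. Rsad2, which encodes viperin, was 4.60 FPKM in replicate 3 and between 0.283 and 0.491 in the other 3, beside 0.360 to 0.731 in WT. Ifi44 was 2.26 FPKM against 0.062 to 0.157, or about 200 reads against about 6 to 14. Mx1, Rsad2 and Ifi44 were among the genes below the level needed for the test. Mx2, Cmpk2, Rtp4, Xaf1 and Parp14 were 2.32-fold to 2.63-fold above the next mouse in replicate 3.

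Bst2, which encodes tetherin, had an FPKM of 27.6, 29.1 and 36.3 in WT and of 16.7, 16.2, 47.4 and 30.3 in the mice labelled Socs3 cKO, so that 2 of the 4 were below WT. Xaf1, which binds an inhibitor of apoptosis, was between 2.57 and 3.22 FPKM in the other 3 mice and between 4.24 and 4.79 in WT, and Ifi35 was between 12.9 and 16.9 FPKM in the other 3 and between 18.4 and 19.2 in WT. For both, replicate 3 lay above WT and the other 3 below it. Parp9, a partner of DTX3L in the antiviral response, was above the WT range in all 4 mice (1.62-fold higher without replicate 3, adjusted p = 0.0824).

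The interferon-inducible GTPases attack the vacuoles of intracellular pathogens and are known to respond to interferon-gamma. Of the 5, 3 had higher values than WT in all 4 mice. Gbp2 had an FPKM of 2.08, 3.49 and 1.47 in WT and of 5.41, 3.80, 18.8 and 9.53 in the mice labelled Socs3 cKO. Irgm1 had an FPKM of 5.13, 7.28 and 4.09 in WT and of 9.84, 9.90, 24.6 and 12.6 in the mice labelled Socs3 cKO. Iigp1 had an FPKM of 1.22, 1.55 and 1.19 in WT and of 2.52, 3.0, 11.9 and 4.50 in the mice labelled Socs3 cKO. The groups did not overlap for these 3 genes, and replicate 3 was 1.95-fold to 2.65-fold above the next mouse.

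These 3 GTPases were not DEGs but had an adjusted p below 0.05, at 0.0209 for Gbp2 (3.43-fold), 0.0154 for Irgm1 (2.44-fold) and 0.0184 for Iigp1 (3.26-fold). Without replicate 3 the folds were 2.56, 1.98 and 2.37 and the adjusted p 0.0332, 0.0222 and 0.0174. Gbp3 and Igtp overlapped WT, with adjusted p of 0.18 and 0.19. Among all roles, 8 of 31 genes tested had a positive difference at an adjusted p below 0.05, against 28.7% of all genes, and the groups did not overlap for 9 of 31 with higher values, against 31.2%. These 9 were Irf1, Ifit2, Gbp2, Irgm1, Iigp1, Ifih1, Ddx58, Tap1 and Parp9, and both counts were close to what the shares over all genes would give. Mx2, which was not tested, did not overlap either.

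The RNA sensors and the antigen-processing genes lay between these patterns. Ifih1 and Ddx58, which encode the sensors MDA5 and RIG-I, were above WT in all 4 mice, at 2.02-fold and 2.01-fold (adjusted p = 0.0479 and 0.0398), and at 1.60-fold and 1.66-fold without replicate 3 (adjusted p = 0.0857 and 0.0853). Dhx58, their regulator, and Eif2ak2, which encodes the kinase PKR, overlapped WT. Tap1, a peptide transporter of the class I pathway, had an FPKM of 11.9, 13.9 and 10.5 in WT and of 17.3, 18.2, 34.7 and 19.8 in the mice labelled Socs3 cKO (1.79-fold, adjusted p = 0.0263; 1.53-fold without replicate 3, adjusted p = 0.0463). The immunoproteasome subunits Psmb8 and Psmb9 overlapped WT, and replicate 4 came within 1.10-fold and 1.21-fold of replicate 3.

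**Figure D3:**
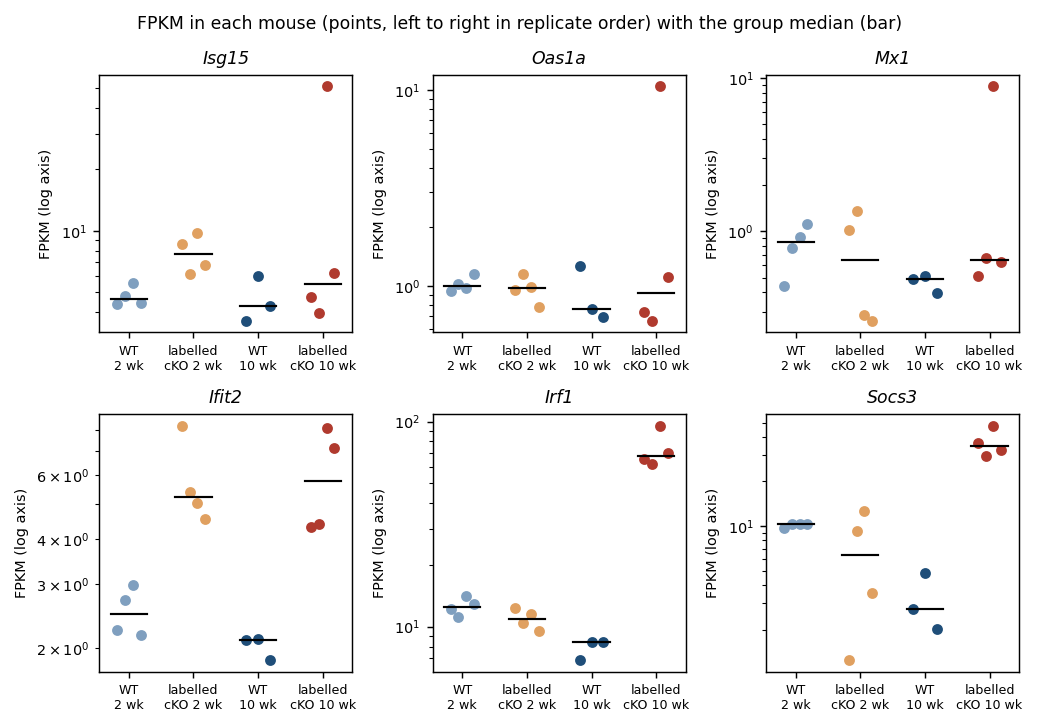
FPKM (log axis) of 6 genes in each mouse, with bars at the group medians. Isg15, Oas1a and Mx1 leave the range of the other mice in 1 mouse labelled Socs3 cKO at 10 weeks (51.2, 10.4 and 8.86 FPKM), Ifit2 is higher at both ages in the groups labelled Socs3 cKO, and Irf1 and Socs3 are high in all 4 mice of the 10-week group.

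The STAT3-type response behaved otherwise across the same mice. A list of 23 genes known to respond to STAT3 or to cytokines of the IL-6 family was examined beside the set. The list, like the set, was chosen with earlier results of these data known. It includes the targeted gene Socs3, whose higher level at 10 weeks is unlike a plain loss of the gene. It also includes Fos, which the paper had already reported as up-regulated in older mice. The counts of DEGs on the list are therefore descriptive and are not an independent test. Of 22 tested at 10 weeks, 15 were up-regulated DEGs, against 12.5% of all genes, and 0 were down-regulated, against 2.43%, with a median log2 fold change of 1.91, beside 0.31 over all genes. Without replicate 3, 13 of 21 were up-regulated DEGs, against 7.72% of all genes, with a median of 1.83, beside 0.29. The 4 largest differences among the DEGs were those of Fos (log2 fold change 5.22, SE 0.57), Il24 (4.13, SE 0.57), Socs3 (3.54, SE 0.29) and Junb (3.48, SE 0.23). Junb, an AP-1 subunit, had an FPKM of 42.6, 24 and 23.6 in WT and of 316, 290, 351 and 344 in the mice labelled Socs3 cKO.

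The difference between the lists can be read mouse by mouse. The median log2(FPKM + 0.1) over the 37 interferon-stimulated genes was 1.14, 1.83 and 1.16 in WT at 10 weeks and 1.64, 1.64, 3.49 and 2.01 in the mice labelled Socs3 cKO. For the 23 STAT3-type genes it was 3.52, 2.94 and 2.81 in WT and 5.20, 4.90, 5.72 and 5.02 in the mice labelled Socs3 cKO. All 4 mice were above WT for the STAT3-type genes, whereas replicates 1 and 2 lay within the WT range for the interferon-stimulated genes. Replicate 3 was the highest of its group for 14 of the 23 STAT3-type genes (60.9%), against 25.2% of all genes. It was more than 2-fold above the next mouse for 5 of the 23, S100a8, S100a9, Saa3, Il24 and Lcn2. Of the 21 tested without replicate 3, 4 (19%) were over 2-fold, against 0.65% of all genes. Replicate 3 was thus above the share of all genes for this list too. The ISRE letters and the GAS letters were each in 5.26% of the 19 STAT3-type genes with a promoter, against 3.99% and 9.55% of all genes.

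**Figure D4:**
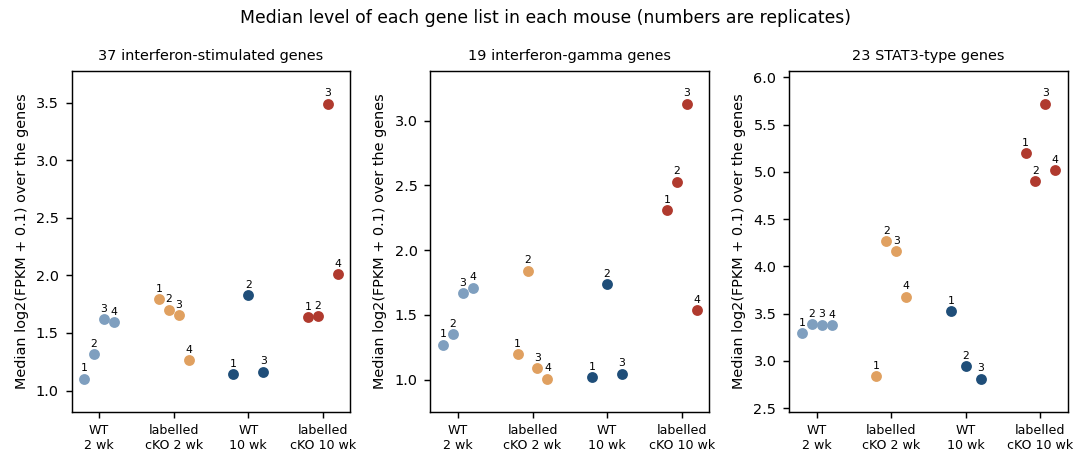
Median log2(FPKM + 0.1) over the genes of each list in each mouse, with the replicate number above each point. At 10 weeks, replicate 3 labelled Socs3 cKO stands at 3.49 for the 37 interferon-stimulated genes, with the other 3 mice of its group between 1.64 and 2.01, whereas all 4 mice stand between 4.90 and 5.72 for the 23 STAT3-type genes, above the 3 WT mice.

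The calprotectin subunits S100a8 and S100a9, which neutrophils and inflamed keratinocytes release, were high in the same mouse. S100a8 had an FPKM of 11.9, 31.6 and 5.88 in WT and of 7.42, 13.4, 838 and 16.5 in the mice labelled Socs3 cKO, and S100a9 had 425 FPKM in replicate 3 and 5.12 to 18.6 in the other 3. At 2 weeks S100a8 was between 118 and 234 FPKM in all 4 mice labelled Socs3 cKO and between 4.57 and 10.4 in WT (log2 fold change 4.77, adjusted p = 4.45e-05).

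Interferons themselves were at or near 0. Of 8 interferon genes examined, only Ifnk, a type I interferon of keratinocytes, exceeded 1 FPKM in any mouse. It was 1.18 FPKM in replicate 3, 0.0907 to 0.197 in the other 3 mice labelled Socs3 cKO and 0, 0 and 0.199 in WT. It was too low for the test. Ifnb1 and Ifng were listed at 0 in replicate 3, as were Ifna2, Ifna4, Ifne, Il28a and Il28b. All of these were also at 0 in the other 3 mice of that group, save Ifnb1 at 0.0987 FPKM in replicate 2. In WT at 10 weeks the highest values were 0.936 FPKM for Il28a, 0.552 for Ifna4 and 0.4875 for Il28b. These libraries had fewer genes at 0 than the others, and the cause was not tested.

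Among receptors, kinases and inhibitors, 4 of 14 tested genes of the pathway were up-regulated DEGs at 10 weeks, against 12.5% of all genes, and 0 were down-regulated, against 2.43%. They were Ifngr1 (2.07-fold), Jak1 (2.13-fold), Jak2 (2.32-fold) and Pias1 (2.42-fold). Without replicate 3, 3 of 14 were up-regulated DEGs, against 7.72%. For Ifngr1, Jak1, Jak2 and Pias1 all 4 mice labelled Socs3 cKO were above the WT range. Jak1, the kinase shared by the interferon receptors, had an FPKM of 23.6, 28.4 and 15.3 in WT and of 41.6, 47.6, 50.4 and 46.2 in the mice labelled Socs3 cKO. Socs1, an inhibitor of interferon signalling, was 13.5 FPKM in replicate 3, 6.33 to 9.36 in the other 3 and 5.92 to 7.25 in WT (adjusted p = 0.30).

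Of 19 further genes known from the response to interferon-gamma, 17 were tested and 3 were up-regulated DEGs at 10 weeks, Cxcl10, Ciita and H2-K1, a share near the 12.5% of all genes. The median log2 fold change of the 17 was 0.78. Cxcl10, a chemokine for T cells, had an FPKM of 1.27, 0.577 and 0.572 in WT and of 17.9, 14, 58.4 and 31.2 in the mice labelled Socs3 cKO (30.5-fold, adjusted p = 0.000174; 23.3-fold without replicate 3). Like Irf1 it was high in all 4 mice, but its promoter showed ISRE letters and no GAS letters. Of 23 other interferon-responsive genes, 20 were tested, with 2 up-regulated DEGs (Samd9l and Sp100), 1 down-regulated DEG (Oas1b) and a median of 0.48, beside 12.5% and 2.43% of all genes. Without replicate 3, 2 of 16 interferon-gamma genes and 1 of 20 other interferon-responsive genes were up-regulated DEGs. Replicate 3 was the highest of its group for 16 of these 23.

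Markers of other cell types were summed in each mouse. The summed FPKM of 5 T cell markers was 32.0 in replicate 3, the lowest of its group (32.0 to 48.8). The sum over 5 macrophage and dendritic cell markers was 603, within 577 to 996, and that over 3 markers of plasmacytoid dendritic cells, a main source of type I interferon, was 28.6, within 27.1 to 34.5. In replicate 3, Lyz2 at 466 FPKM made up most of the former and Tcf4 at 26.7 most of the latter. The other 2 plasmacytoid markers went opposite ways. Siglech was 0.847 FPKM in replicate 3 and 1.52 to 1.67 in the other 3 mice, and Ccr9 was 1.08 against 0.648 to 0.961. The sum over 5 keratinocyte markers was 11450, the highest of 7492 to 11450, and that over 3 fibroblast markers was 2871, the lowest of 2871 to 5824. No marker of these lists was at 0 in all mice of a group. Between the groups at 10 weeks, 4 of 5 macrophage and dendritic cell markers and 3 of 3 endothelial markers were up-regulated DEGs in the mice labelled Socs3 cKO. The share over all genes was 12.5%. Of the markers tested, 1 of 4 for T cells and 1 of 3 for fibroblasts were up-regulated DEGs too. No keratinocyte, NK cell, plasmacytoid dendritic cell or skeletal muscle marker was one. The part of these cell types in the differences of the interferon-stimulated genes was not tested. In replicate 3, the number of genes at 0 was 4126, within the 4092 to 4233 of its group.

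At 2 weeks the groups differed little for these genes. Of 32 genes tested, 2 were up-regulated DEGs, Ifit2 and Ifit3, against 7.24% of all genes tested, and 1 was down-regulated, Oas2, against 7.19%. Oas3, Oasl1, Mx2, Rsad2 and Ifi44 were too low for the test. The median log2 fold change was -0.08, beside -0.21 over all genes, and turned positive, at 0.11 beside -0.01, with median-of-ratios scaling and at 0.33 beside 0.05 with quantile normalization. The groups did not overlap for 6 genes with higher values, against 22.9% of all genes, and for 3 with lower values, against 33.2%. Without replicate 1 of the mice labelled Socs3 cKO, 1 of 30 genes was an up-regulated DEG (Ifit3) and 1 a down-regulated one (Oas2), and Ifit2 stood at 0.96 on the log2 scale (adjusted p = 0.000902). Shares of calls over all genes were not worked out for the fit without this mouse, here and below. No mouse of the group stood apart across the set as replicate 3 did at 10 weeks, and replicates 1 and 2 were the highest for 17 and 15 of the 37 genes.

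Ifit2 had an FPKM of 2.25, 2.71, 2.98 and 2.18 in WT at 2 weeks and of 8.22, 5.39, 5.02 and 4.55 in the mice labelled Socs3 cKO (2.20-fold, adjusted p = 0.0058). Ifit3 had an FPKM of 1.70, 2.00, 2.17 and 3.0 in WT and of 7.44, 4.29, 5.45 and 4.13 in the mice labelled Socs3 cKO (2.33-fold, adjusted p = 0.00722). Neither gene overlapped between groups. Neither was a DEG once each library's trend with gene length and GC content was removed, when the log2 fold changes fell from 1.14 to 0.48 and from 1.22 to 0.48, and Ifit2 remained a DEG in 1 and Ifit3 in 2 of the 8 fits that left out 1 mouse.

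A further 4 genes passed an adjusted p of 0.05 with higher values and less than a 2-fold difference. They were Ifih1 (1.78-fold, adjusted p = 0.00557), Parp9 (1.56-fold, 0.00966), Isg15 (1.60-fold, 0.0199) and Eif2ak2 (1.43-fold, 0.0493). Isg15 had an FPKM of 4.37, 4.81, 5.53 and 4.41 in WT and of 8.63, 6.13, 9.71 and 6.80 in the mice labelled Socs3 cKO. In all, 6 of 32 genes were higher at this threshold, against 21.8% of all genes, and 2 were lower, against 26.1%. Without replicate 1 of the mice labelled Socs3 cKO, 7 of 30 were higher and 5 lower.

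Oas2 was lower in the mice labelled Socs3 cKO at 2 weeks, with an FPKM of 1.19, 1.17, 1.14 and 1.04 in WT and of 0.293, 0.660, 0.163 and 0.342 in the other group (log2 fold change -1.51, SE 0.31, adjusted p = 0.00731). Stat2 was lower as well, with an FPKM of 7.93, 8.79, 8.99 and 9.13 in WT and of 2.40, 6.29, 2.80 and 3.84 in the mice labelled Socs3 cKO (log2 fold change -1.26, SE 0.28, adjusted p = 0.0098). The groups did not overlap for either gene. Without WT replicate 1, for example, the adjusted p of Oas2 was 0.0249 and that of Stat2 0.0278. Irf1 was between 11.1 and 14.1 FPKM in WT and between 9.52 and 12.4 in the mice labelled Socs3 cKO at this age (adjusted p = 0.268).

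Of the STAT3-type genes, 3 of 21 were up-regulated DEGs at 2 weeks, S100a8, S100a9 and Lcn2, against 7.24% of all genes. The median log2 fold change of the list was -0.19, beside -0.21 over all genes. It turned positive, to 0.40, without replicate 1 of the mice labelled Socs3 cKO (4 up-regulated and 1 down-regulated DEGs), to 0.34 with the length and GC trend removed, to 0.01 with median-of-ratios scaling and to 0.07 with quantile normalization. Of the genes of the pathway, Ifngr1 was an up-regulated DEG (2.31-fold) and Stat2 was the down-regulated one. Of 15 interferon-gamma genes tested, B2m was an up-regulated DEG, and of 21 other interferon-responsive genes Ifi27l2a, Ifitm3 and Samd9l were. Without replicate 1 of the mice labelled Socs3 cKO, 3 of 15 interferon-gamma genes and 3 of 20 other interferon-responsive genes were up-regulated DEGs, and of the 14 pathway genes 1 was up-regulated and 3 were down-regulated. With no share over all genes for this fit, these counts cannot be set against the background.

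The difference between the ages in the effect of genotype was tested as an interaction. The spread in this fit comes from all 4 groups, replicate 3 at 10 weeks included. Of 33 genes tested, Irf1 was the only one that passed with a higher value at 10 weeks, against 18% of all genes tested, and none passed with a lower one, against 6.55%. The interaction of Irf1 was 3.38 on the log2 scale (SE 0.23, adjusted p = 1.08e-06). At an adjusted p below 0.05 the interaction was positive for 5 of 33 genes, Irf1, Oas2, Cmpk2, Irgm1 and Iigp1, against 34.6% of all genes, and negative for Ifi35 alone, against 12.5%. Of the STAT3-type genes, 12 of 22 passed with a higher value at 10 weeks, against 18%, and 1 with a lower one, against 6.55%. Without replicate 3 at 10 weeks, 8 of 21 passed with a higher value and 3 with a lower one, and no share over all genes was worked out.

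Between the ages within WT, 3 of 33 genes were higher at 10 weeks as DEGs, against 6.18% of all genes, and 1 was lower, against 19.4%. Ifi35 was between 8.61 and 10.1 FPKM at 2 weeks and between 18.4 and 19.2 at 10 weeks (2.02-fold, adjusted p = 0.000205), Ifit3 differed 2.73-fold (adjusted p = 0.00785), and Psmb9 was between 4.47 and 10.6 and then between 15.3 and 18.5 FPKM (2.20-fold, adjusted p = 0.00743). With the length and GC trend removed, the log2 fold change of Ifit3 dropped from 1.45 to 0.80 (adjusted p = 0.0841) and that of Ifi35 from 1.01 to 0.68 (adjusted p = 0.0039), and neither was a DEG. Cmpk2, a mitochondrial nucleotide kinase, was between 1.57 and 1.92 FPKM at 2 weeks and between 0.555 and 0.935 at 10 weeks (log2 fold change -1.15, adjusted p = 0.00991), and was -0.67 (adjusted p = 0.0977) with quantile normalization. At an adjusted p below 0.05, 5 were higher, against 13.1%, and 2 were lower, against 37.6%. The spread in this fit comes from all 4 groups, so replicate 3 labelled Socs3 cKO at 10 weeks enters it. Without that mouse the SE of Irf7 fell from 0.58 to 0.28, and Xaf1 became a DEG (2.04-fold, adjusted p = 0.00144). Irf7, Ddx58 and Iigp1 were then also lower, and Ifit1 and Bst2 also higher, at an adjusted p below 0.05. No share over all genes was worked out for that fit. The groups did not overlap for 9 genes with higher values, against 17.3%, and for 7 with lower values, against 49.5%.

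Between the ages within the mice labelled Socs3 cKO, Irf1 was the only one of 33 genes that was a DEG with a higher level at 10 weeks, against 2.01% of all genes, and none was a DEG with a lower level, against 1.53%. It was between 9.52 and 12.4 FPKM at 2 weeks and between 61.9 and 95.6 at 10 weeks (6.58-fold, adjusted p = 3.32e-07). At an adjusted p below 0.05, Irgm1, Psmb8, Psmb9 and Xaf1 were also higher at 10 weeks, so that 5 of 33 passed against 5.29% of all genes, and 3 of 32 passed without replicate 3. None was lower at this threshold, against 4.8%. The groups did not overlap for 6 genes with higher values, against 7.71%, and for 0 with lower values, against 6.79%. These comparisons share their samples with the comparisons of genotype above.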

How the data were processed

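Total RNA from ear samples of 15 mice had been sequenced as single reads. The authors deposited 1 FPKM value per gene and sample for 21110 genes, and the submitters' processing notes name TopHat2 2.1.0, Cufflinks and mm9. No counts were used here, so the count test of the study was replaced by limma 3.58.1 in R 4.3.3 with a trended prior variance on log2(FPKM + 0.1), and fold changes are on that scale, which understates changes of low genes. A gene was tested where 3 or more of the samples compared reached 1 FPKM, 2-sided, with Benjamini-Hochberg adjustment over all genes tested. A call needed an adjusted p below 0.01 and an absolute log2 fold change of at least 1. Genotypes were compared within each age, and the interaction and the ages in a fit of all 4 groups. The labels do not say that the samples of a group come from separate litters, so that p-values measure the spread between these samples.

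Groups and replicate numbers came from the sample labels. Further wild-type mice of the study were not analysed here, and the result for 1 gene is not reported here. All 37 genes were named, with Socs3 and Stat2, and of the other lists at most the 4 genes with the largest called difference in each direction. Oas1g, S100a8 and S100a9 at 10 weeks, and the receptor, kinase and inhibitor genes named, were chosen after their values were seen. The genes and lists were chosen with earlier results of these data known. Emr1 is the symbol in the files for the macrophage marker Adgre1. Depth was estimated as about 11500000 to 16500000 reads from the FPKM worth of 1 read and the numbers of reads given are estimates from it. Reads shared by near-identical genes, such as those of the Oas1, Ifit, Gbp and Irgm families, may be divided between copies. Counts of genes high in 1 mouse used a filter on low values without that mouse, a choice made after the data were seen. The fits were tested on simulated data before use. Alternatives were other pseudocounts (0.01 and 1), filters, scalings, a replicate block, all groups in 1 fit, a constant prior variance, removal of each library's trend with gene length and GC content, a looser threshold, and leaving out each sample. Promoters were read from RefSeq on GRCm38.p6, a build other than that of the FPKM tables.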

Additional observations from a re-analysis of the deposited data

Results flagged for a closer look

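In groups of 4 mice, a value was singled out where its gap to the nearest other mouse exceeded Dixon's 95% critical value as a fraction of the range of the group, which chance passes in about 1 in 20 groups. Replicate 3 of the mice labelled Socs3 cKO at 10 weeks passed it at the top for 17 of the 37 genes, and for 9 of the 27 that passed the filter on low values without it, against 0.874% of all genes. The fraction of the range was 0.991 for Irf7, 0.981 for Mx1, 0.979 for Oasl2, 0.972 for Oas3, 0.957 for Ifi44, 0.955 for Oas1a, 0.952 for Isg15 and 0.952 for Rsad2. It was 0.906 for Usp18, 0.900 for Ifih1, 0.890 for Ddx58, 0.868 for Xaf1, 0.860 for Tap1, 0.857 for Cmpk2, 0.851 for Mx2, 0.843 for Igtp and 0.832 for Dhx58. Beside the set, it was 0.902 for the interferon gene Ifnk in the same mouse.

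At 2 weeks such gaps were spread over several mice. In the mice labelled Socs3 cKO, replicate 1 was apart at the bottom for Cmpk2 (0.861) and at the top for Rtp4 (0.855) and Ifnk (1.0, with the other 3 mice at 0), and replicate 2 at the top for Parp14 (0.893). In WT, replicate 4 was apart at the bottom for Oasl1 (0.957), replicate 3 at the top for Bst2 (0.892) and Mx2 (0.858), and replicate 1 at the bottom for Socs3 (0.866), where the 4 values span only 9.71 to 10.3 FPKM.

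The effect of genotype differed between the ages for Irf1, by 3.38 on the log2 scale in the interaction term of limma (adjusted p = 1.08e-06), and for Socs3, by 4.60 (adjusted p = 0.000644).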

How the results depend on the processing

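No call changed direction under any alternative. At 2 weeks the 2 higher and 1 lower interferon-stimulated genes became 0 and 0 with a pseudocount of 1 and with the replicate block, 5 and 0 with quantile normalization, 1 and 0 with all 4 groups in 1 fit, and 6 and 2 at an adjusted p below 0.05; the higher count was 0 with the length and GC trend removed, the lower 0 with a pseudocount of 0.01, and leaving out 1 mouse gave 0 to 2 of each (0 of each for any mouse other than labelled Socs3 cKO replicates 1 and 2). At 10 weeks the 2 higher genes became 1 with quantile normalization or the replicate block, 4 with all 4 groups and 8 at the looser threshold, and 1 to 2 when 1 mouse was left out (1 without WT replicate 1 or 3 or labelled Socs3 cKO replicate 3). For the interaction the higher count was 2 with the length and GC trend removed and 5 at the looser threshold, and the lower count was 1 under both scalings and at that threshold. Between ages in WT, the 3 higher genes became 1 with a pseudocount of 1, 5 with median-of-ratios scaling, 7 with quantile normalization and 5 at the looser threshold (2 with the replicate block and with the length and GC trend removed), and the 1 lower gene became 0 under both pseudocounts, without a filter, under both scalings, with the replicate block and with the length and GC trend removed, and 2 at the looser threshold; leaving out 1 mouse gave 0 to 4 and 0 to 1. Between ages in the mice labelled Socs3 cKO, the higher count was 2 with the length and GC trend removed, 5 at the looser threshold and 1 to 2 with 1 mouse left out. Of the STAT3-type genes at 2 weeks, the 3 higher became 5 under both scalings and at the looser threshold, and the 0 lower became 1 with a pseudocount of 1 or all 4 groups, 2 at the looser threshold and 0 to 1 with 1 mouse left out. Filtering with replicate 3 included, an alternative chosen after seeing the data, 16 in place of 12 interferon-stimulated genes were over 2-fold above the next mouse in it. The causes were not tested. Deviations of same-numbered mice had correlations of -0.21 to 0.07 at 10 weeks and -0.04 to 0.14 at 2 weeks. Between the ages the highest was 0.24, for replicate 2 labelled Socs3 cKO. The numbers were not taken as pairs in the main fits, but low correlations cannot exclude a shared litter or preparation. The all-gene median shifted between scalings by more than 0.1 at both ages (from -0.21 to -0.01 at 2 weeks with median-of-ratios scaling). Genes near 1 FPKM rest on few reads, and 3 or 4 mice a group leave a difference carried by 1 mouse without a test.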

Other observations

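Among the 84 genes more than 2-fold above the next mouse in replicate 3 of the mice labelled Socs3 cKO at 10 weeks, 62 belonged to none of the lists. They were looked at after their values were seen, and no test is given. Krt6b, a keratin of activated keratinocytes, was 632 FPKM in replicate 3, between 28.3 and 31.9 in the other 3 mice and between 2.64 and 7.14 in WT. Krt6a was 576 FPKM against 111 to 125, and Krt16 was 1134 FPKM against 284 to 306. Of the small proline-rich genes, Sprr2a2 was 157 FPKM in replicate 3 and between 2.82 and 6.91 in the other 3. Stfa1, a stefin gene, was 594 FPKM against 14 to 29.9.

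Genes of other roles were among them too. Plk1, a mitotic kinase, was 6.73 FPKM in replicate 3, between 1.41 and 2.32 in the other 3 mice and between 1.91 and 3.29 in WT. Ube2c, a gene of the same phase of the cell cycle, was 18.5 FPKM in replicate 3 and between 5.20 and 9.19 in the other 3, but between 11.8 and 36.5 in WT. The connexin genes Gjb2 and Gjb6 were 36.0 and 9.45 FPKM in replicate 3, and at most 12.9 and 3.36 in the other 3 mice and 8.0 and 3.93 in WT. Of the genes in the lists, 4 of the 84 were STAT3-type and 12 were from the set of interferon-stimulated genes. Another 3 were other interferon-responsive genes, 1 was an interferon-gamma gene and 2 were genes of the pathway. The genes named in this section were picked from those on none of the lists. Whether others of those respond to interferon was not tested.

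Replicate 3 stood apart by Dixon's criterion for 7 of the 14 genes with ISRE letters in their promoter and for 6 of the 14 without them. It did so for 4 of the 9 genes with no promoter at hand. The filter on low values was not applied here, so genes that were low in the other mice are counted. All of these counts rest on the same mouse, and a role of the ISRE letters was not tested.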
